A study of Mus musculus with 7 samples.

Results

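The potassium channel genes of the mouse are described here in the medial prefrontal cortex (mPFC) of animals given TSP1 or phosphate-buffered saline (PBS). The members are the protein-coding genes in the deposited count table whose symbol starts with Kcn, which gave 89 of the 25467 genes in the table, on 19 chromosomes. The mouse annotation used here (GENCODE M21, on GRCm38) holds 94 such genes, and the other 5 (Kcna7, Kcnj1, Kcnk16, Kcnk18 and Kcnmb3) were not analysed here. The groups were 4 brain samples labelled rhTSP1 (TSP1 replicates 1 to 4) and 3 labelled PBS (replicates 1 to 3), each from a different mouse according to the series design. TSP1 is thrombospondin-1, a secreted matrix glycoprotein known as an astrocyte signal for synapse formation. The labels used here give no strain, age, sex, dose, route or interval for either group, and no other treatment or allele. Libraries were made with a SMARTER mRNA kit from 1.3 µg of total RNA.

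Potassium channels let potassium leave or enter the cell along its gradient, set the resting potential, repolarise the action potential and shape the interval between spikes. Voltage-gated subunits (Kcna to Kcnd, Kcnq, Kcnh) open on depolarisation, inward rectifiers (Kcnj) and tandem-pore leak channels (Kcnk) act near rest, and Kcnma1 and the Kcnn genes respond to calcium. Silent subunits (Kcnf, Kcng, Kcns, Kcnv) form no channel alone and modify other voltage-gated channels, and accessory subunits (Kcnab, Kcnip, Kcnmb, Kcne) bind pore subunits and change their gating or delivery to the membrane. In cortex most of these genes are known from neurons, with Kcnj10 and Kcnj16 known from astrocytes, Kcnk13 from microglia and Kcnj8 from pericytes and vascular smooth muscle.

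Depth was similar across the libraries, with 15090336 to 20755167 counts and 23548 to 23895 genes detected in each. The common biological coefficient of variation was 9.8%. Markers of neurons were high in every library, at a summed 7003 to 7644 counts per 1000000 (CPM), and the excitatory cortical list, which includes Slc17a7, summed to 5906 to 8656 CPM. Libraries did stand apart: TSP1 replicate 4 held 1069 CPM of striatal neuron markers against 571 to 606 in the other 6, and 9020 CPM of oligodendrocyte markers against 3301 to 6274. TSP1 replicate 3 held 348 CPM of blood markers against 49.2 to 131 elsewhere. PBS replicate 1 was the lowest of the 7 libraries for 32 of the 76 members tested, as described near the end. Log2 fold changes without 1 of these libraries stand beside many of the values, and the counts of sign changes near the end. In bulk tissue, fewer cells of a type and less RNA per cell cannot be told apart.

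Of the 89 members, 76 passed the low-count filter and were tested among 17211 genes. The 13 that did not pass were Kcna10, Kcne1, Kcne2, Kcne3, Kcnh8, Kcnj13, Kcnj15, Kcnk5, Kcnk7, Kcnk15, Kcnmb1, Kcnn4 and Kcnv2, with 5 to 62 counts summed over the 7 libraries. Their highest mean level was 0.501 CPM, and the lowest among the tested members was 0.611 CPM, in Kcnj5.

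Levels between genes were compared as RPKM, which is CPM per kilobase of annotated exon, averaged over the 7 libraries. The highest member was Kcnab2, the main cortical beta subunit of the Kcna channels, at 78.9 RPKM, above 97.4% of the protein-coding genes tested. It was followed by the strong inward rectifier Kcnj4 at 59.5 RPKM, the astrocytic rectifier Kcnj10 at 42.7 RPKM, the silent subunit Kcnf1 at 41.9 RPKM and the G-protein-gated rectifier subunit Kcnj9 at 41.4 RPKM. The ranges of these last 3 genes over the libraries overlapped. Other high members were Kcnh3 at 39.5, the Kcnd-binding protein Kcnip3 at 38.7 and the leak channel Kcnk1 at 32.9 RPKM.

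Several families were carried largely by 1 gene per unit of exon length. Kcnt1, the sodium-activated channel, held 79.5% of the summed RPKM of its family (Kcnt1, Kcnt2 and Kcnu1). Kcnk1 held 51.3% of the leak family, Kcnh3 48.9% of the Kcnh family, Kcnf1 47.8% of the silent subunits and Kcnab2 43.3% of the accessory subunits. The voltage-gated family was spread more evenly, with Kcnc4 at 14.1% and Kcna2 at 11.0%. The shares were close in both groups. Kcnk1 made up 50.3% ± 1.34 (SD, n = 4) of the leak family with TSP1 and 52.6% ± 1.64 (SD, n = 3) with PBS, and Kcnf1 made up 47.9% ± 0.727 (SD, n = 4) and 47.5% ± 1.74 (SD, n = 3) of the silent subunits.

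**Figure D1:**
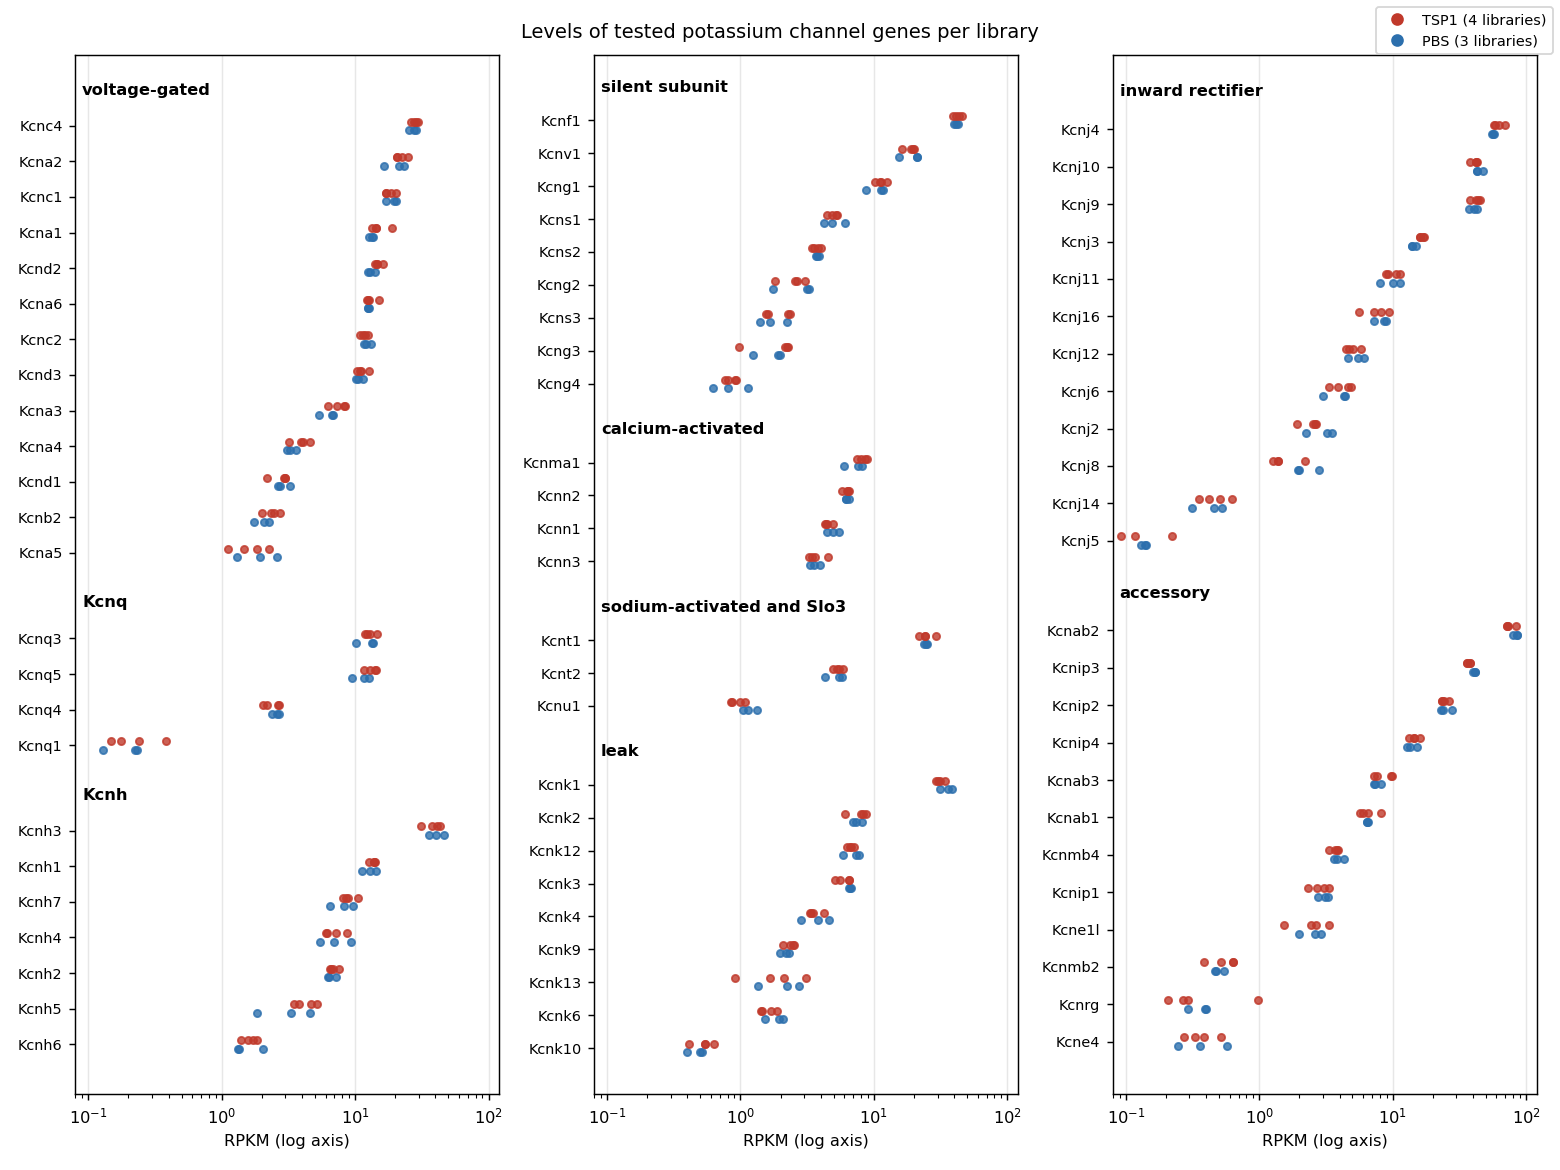
Level of 73 of the 76 tested potassium channel genes in every library, grouped by family and ordered by mean level, on a log axis in RPKM. Each red point is 1 TSP1 library and each blue point 1 PBS library; Kcnab2 is highest at a mean of 78.9 RPKM, and the ranges of red and blue points overlap for every gene except Kcnj3 and Kcnip3.

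The comparison of TSP1 with PBS asks whether the treatment was accompanied by a different level of any channel gene. In the quasi-likelihood test of edgeR, no member passed a false discovery rate (FDR) of 0.05 adjusted across the whole table, and neither did any other gene (0 of 17211, 0%). The smallest adjusted p in edgeR's test was 0.302 among the members and 0.0536 among all genes. At an unadjusted p under 0.05, 6 of 76 members (7.89%) were counted, against 9.65% of all genes tested, a share near the background. With single libraries left out the share lay above or below the background, as given near the end. Of these, 3 were higher with TSP1 (3.95%, background 4.21%) and 3 lower (3.95%, background 5.44%). The 4 TSP1 and 3 PBS values did not overlap for 2 members, Kcnj3 and Kcnip3 (2.63%, background 10.1%), 1 of them higher (1.32%, background 4.83%) and 1 lower (1.32%, background 5.26%). DESeq2 and the exact test of edgeR also called 0 members at this FDR, while calling 88 (0.603%) and 107 (0.622%) genes in all.

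Differences in both directions were small. The median fitted log2 fold change (TSP1 over PBS) was 0.03 over the 76 members and 0.004 over all genes, and 41 members (53.9%) lay above 0, against 51.1% of all genes. The middle 50% of members lay between -0.09 and 0.12, and of all genes between -0.10 and 0.10. The 95% interval stayed within a 1.5-fold difference either way (0.58 on the log2 scale) for 62 members (81.6%, background 69.1%). For the other 14 it did not: Kcna5, Kcne4, Kcng2, Kcng3, Kcnh5, Kcnj2, Kcnj5, Kcnj8, Kcnj14, Kcnk13, Kcnmb2, Kcnq1, Kcnrg and Kcnu1. Summed over all members, the level was 920 ± 36.3 RPKM (SD, n = 4) with TSP1 and 917 ± 56.9 RPKM (SD, n = 3) with PBS.

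**Figure D2:**
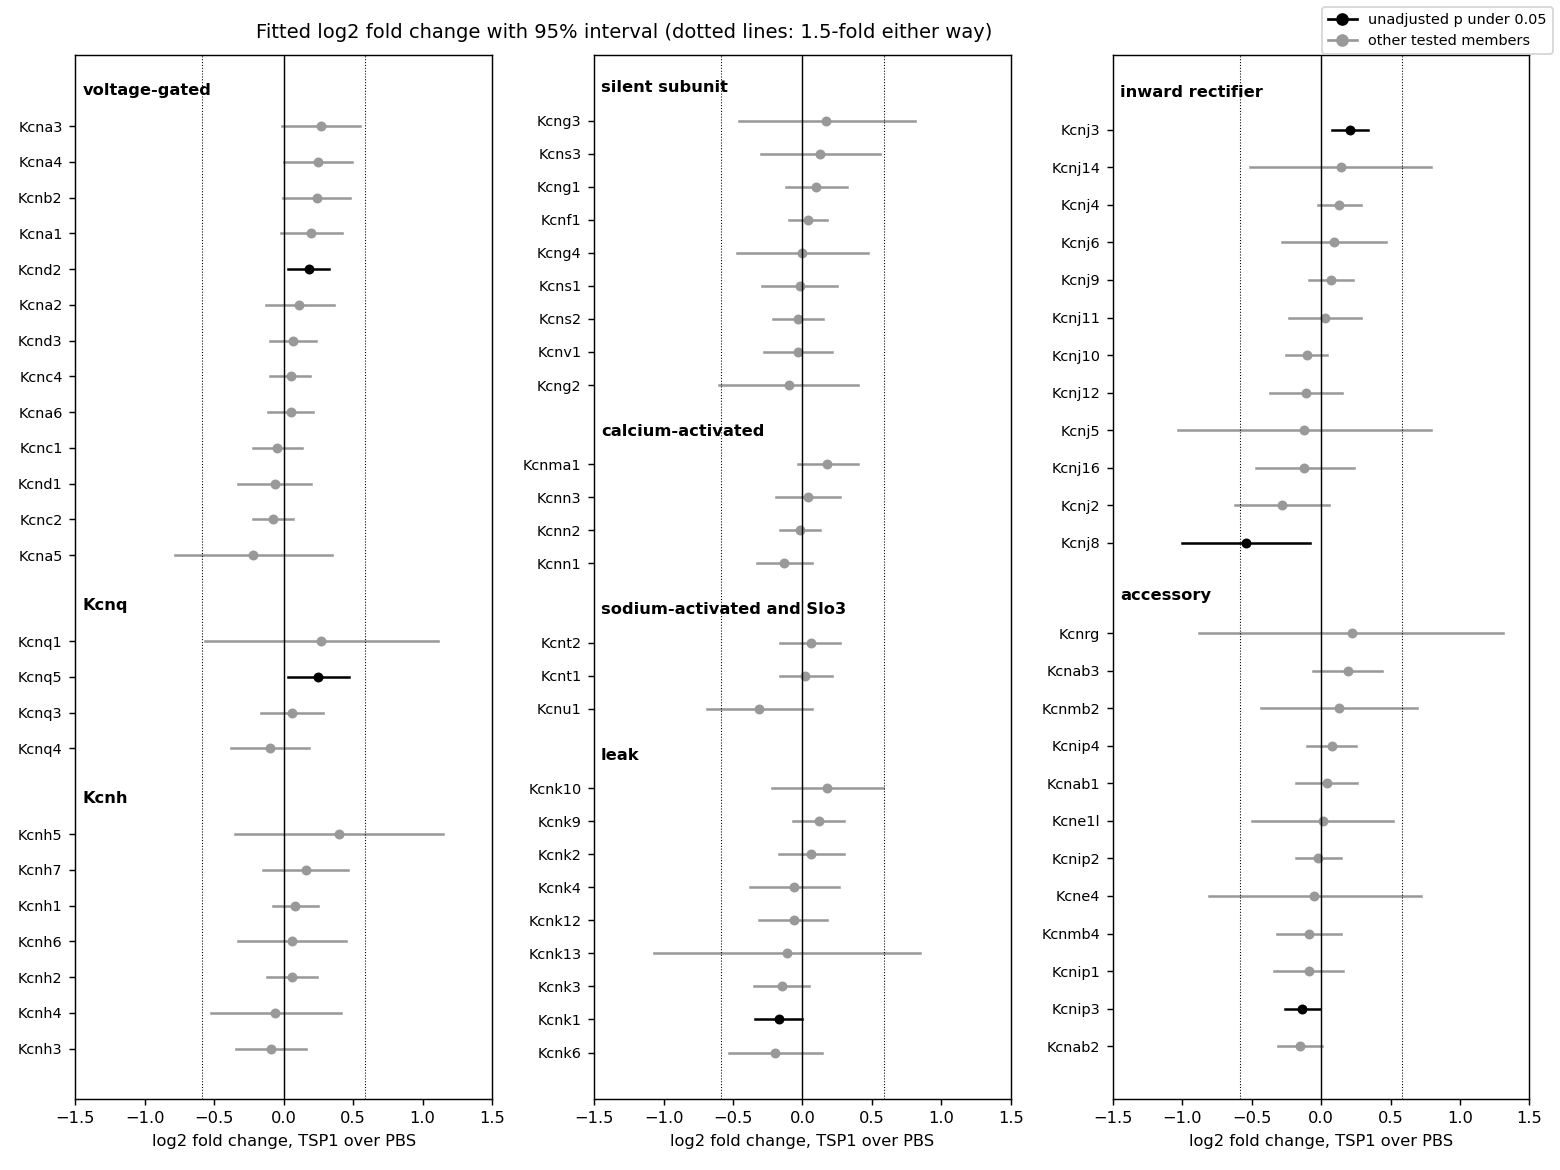
Fitted log2 fold change of TSP1 over PBS for 73 of the 76 tested members (point) with its 95% interval (line), by family, with dotted lines at a 1.5-fold difference either way. Black marks the 6 members at an unadjusted p under 0.05 (none past the adjusted threshold), and most intervals stay between the dotted lines.

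Among the inward rectifiers (12 of 14 members tested), 6 fitted values were above 0 and 6 below, with a median of -0.04 and a summed level of 194 ± 9.04 RPKM (SD, n = 4) with TSP1 and 189 ± 7.83 RPKM (SD, n = 3) with PBS. Kcnj3 encodes GIRK1, a subunit of the G-protein-gated channels that slow neurons down when inhibitory transmitter receptors are engaged. It lies at chr2:55435970-55598145 (GRCm38). Its levels were 89.6, 83.1, 88.6 and 84.0 CPM in TSP1 replicates 1 to 4 and 72.9, 77.9 and 73.2 CPM in PBS replicates 1 to 3. All 4 TSP1 values were above all 3 PBS values. The log2 fold change was 0.21 (SE 0.06, 95% interval 0.08 to 0.34), with an unadjusted p of 0.00414 and an adjusted p of 0.302 in edgeR's quasi-likelihood test. Its value stayed between 0.18 and 0.25 in the 17 alternatives, and its unadjusted p was under 0.05 in each of them, while the adjusted p of no named gene went below 0.212 in any. An opposite-strand transcript, Gm26794, overlaps 31.1% of the Kcnj3 exon bases; it was counted at 2.80 ± 0.434 CPM (SD, n = 4) with TSP1 and 2.51 ± 0.270 CPM (SD, n = 3) with PBS, and the sources used here do not say whether the counting used strand.

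The values of the subunits that assemble with GIRK1 overlapped between the groups, and the difference between genes was not tested. Kcnj9 (GIRK3) had 162 to 195 CPM with TSP1 and 159 to 184 CPM with PBS, a log2 fold change of 0.07 (interval -0.09 to 0.23), or 0.02 without PBS replicate 1. Kcnj6 (GIRK2) had 25.3 to 36.9 CPM and 23.1 to 33.8 CPM, a log2 fold change of 0.09 (interval -0.28 to 0.47), which ran from -0.07 without PBS replicate 1 to 0.20 without PBS replicate 2. PBS replicate 1 was the lowest library for both, and both intervals hold the Kcnj3 value of 0.21. Kcnj5 (GIRK4) was near the detection limit at 0.586 ± 0.313 CPM (SD, n = 4) and 0.644 ± 0.0294 CPM (SD, n = 3).

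Kcnj3 and Kcnip3 are the 2 members whose groups did not overlap, so 250 bases before a RefSeq start site of each are shown (GRCm38.p6, 5′ to 3′ on the gene's strand). RefSeq lists 1 start for Kcnj3 and 3 for Kcnip3, and for Kcnip3 the start at the 5′ end of the annotated gene was taken; the other 2 windows are not shown. RefSeq promoter entries matched 64 of the 89 members. Capitals mark matches, on either strand, to a CCAAT box (CCAAT or ATTGG) or an E-box (CAGCTG). The Kcnj3 window, on the plus strand at chr2:55435720-55435969, has a GC content of 58.4%.
Kcnj3: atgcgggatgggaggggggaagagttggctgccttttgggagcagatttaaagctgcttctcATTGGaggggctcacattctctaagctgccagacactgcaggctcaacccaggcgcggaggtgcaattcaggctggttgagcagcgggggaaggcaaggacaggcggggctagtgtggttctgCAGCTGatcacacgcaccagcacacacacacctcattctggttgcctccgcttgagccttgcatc
The Kcnip3 window, on the minus strand at chr2:127522095-127522344, has a GC content of 60%.
Kcnip3: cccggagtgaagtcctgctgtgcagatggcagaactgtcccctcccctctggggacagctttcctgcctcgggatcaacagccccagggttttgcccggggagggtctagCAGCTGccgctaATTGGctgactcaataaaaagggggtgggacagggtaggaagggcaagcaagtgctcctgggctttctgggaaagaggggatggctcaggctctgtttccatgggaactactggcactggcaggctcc
In the Kcnj3 window the CCAAT box starts 188 bases and the E-box 65 bases before the start site, and in the Kcnip3 window shown they start 128 and 140 bases before it. Of 32851 RefSeq promoter windows of this length, 33.8% hold a CCAAT box and 13% this E-box. Neither of these windows holds the GC box GGGCGG (32.7% of windows), TATAAA (12.4%) or the cAMP response element TGACGTCA (1.55%). The genes had opposite signs, and a match is a description of letters, not of binding.

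Other inward rectifiers had values on both sides of 0. Kcnj8 is the Kir6.1 pore of ATP-sensitive channels in pericytes and vascular smooth muscle and had the largest fitted difference below 0. Its levels were low, at 3.5, 3.5, 5.6 and 3.21 CPM with TSP1 and 7.12, 5.03 and 5.01 CPM with PBS. TSP1 replicate 3 lay inside the PBS range, so the groups overlapped; this library also held the high blood markers. The log2 fold change was -0.54 (SE 0.21), with an unadjusted p of 0.0248 and an adjusted p of 0.449 in edgeR's test. With each library left out in turn, it ranged from -0.76 without TSP1 replicate 3 (adjusted p 0.303 in edgeR's test) to -0.34 without PBS replicate 1 (adjusted p 0.727). Over all the alternatives that tested this gene it lay between -0.76 and -0.25. Abcc9, the sulphonylurea receptor that pairs with this pore, had 12.5 ± 2.32 CPM (SD, n = 4) with TSP1 and 12.8 ± 1.33 CPM (SD, n = 3) with PBS. The summed pericyte and smooth muscle markers were 217 to 261 CPM with TSP1 and 230 to 248 CPM with PBS, with 5 of 9 tested below 0 and a median of -0.03. The part of these cells in the Kcnj8 value was not tested.

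Kcnj10, the Kir4.1 channel through which astrocytes take up potassium, had 206, 233, 229 and 228 CPM with TSP1 and 233, 231 and 257 CPM with PBS. The ranges overlapped, with a log2 fold change of -0.10 (interval -0.25 to 0.04). Its partner Kcnj16 had 22.0 to 36.9 CPM with TSP1 and 28.6 to 35.2 CPM with PBS (log2 fold change -0.12, interval -0.47 to 0.24), and its value was 0.01 without TSP1 replicate 4, its lowest library. Beside these, 15 of 16 astrocyte markers had fitted values below 0, with a median of -0.17, and their sum was 6054 to 7450 CPM with TSP1 and 7015 to 8065 CPM with PBS. The part of astrocyte content in the Kcnj10 value was not tested. Kcnj4, the strong rectifier Kir2.3, had 124, 149, 134 and 126 CPM with TSP1 and 119, 121 and 124 CPM with PBS, which fitted as 0.13 (SE 0.07) on the log2 scale, with an adjusted p of 0.591 in edgeR's test. Kcnj2 (Kir2.1) had 10.4 to 14.5 CPM with TSP1 and 12.2 to 19.0 CPM with PBS, a log2 fold change of -0.28 (interval -0.62 to 0.06). Its value was -0.46 without PBS replicate 1, with an unadjusted p of 0.00448 in edgeR's test, and -0.15 without PBS replicate 3 (unadjusted p 0.39 in edgeR's test).

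The voltage-gated family (15 of 16 members tested) had 10 fitted values above 0 and 5 below, a median of 0.05, and a summed level of 198 ± 7.97 RPKM (SD, n = 4) with TSP1 and 191 ± 14.8 RPKM (SD, n = 3) with PBS. Kcnd2 is the Kv4.2 pore of the dendritic A-type current. It had 75.7, 74.9, 72.4 and 83.9 CPM with TSP1 and 64.9, 72.8 and 66.1 CPM with PBS. TSP1 replicate 3 lay just under PBS replicate 2, and the other 3 TSP1 values were above all PBS values. Its fitted difference was 0.18 on the log2 scale (SE 0.07), with an unadjusted p of 0.0251 and an adjusted p of 0.449 in edgeR's test, and 0.13 without TSP1 replicate 4. Kcnd3 (Kv4.3), at 108 ± 9.68 CPM (SD, n = 4) and 103 ± 6.37 CPM (SD, n = 3), had a log2 fold change of 0.07 (interval -0.10 to 0.23).

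The Kcna genes encode the low-threshold channels of axons and their initial segments. Kcna1 had 68.5, 68.2, 64.0 and 89.6 CPM with TSP1 and 60.5, 64.4 and 64.7 CPM with PBS. TSP1 replicate 4, the library with the high striatal and oligodendrocyte markers, was the highest, and the log2 fold change of 0.20 (SE 0.10) became 0.09 without it. Kcna2 had 295, 269, 246 and 245 CPM with TSP1 and 197, 278 and 256 CPM with PBS. Here PBS replicate 1 was the low library, and the log2 fold change of 0.11 (SE 0.11) became -0.02 without it. Kcna3 and Kcna4 had fitted values of 0.27 (interval -0.01 to 0.55) and 0.25 (interval -0.0006 to 0.49), and the slower Kcnb2 had 0.24 (interval -0.0014 to 0.48), all with adjusted p of 0.521 to 0.530 in edgeR's test. PBS replicate 1 was the lowest library for all 3, and without it the values were 0.16 for Kcna3, 0.20 for Kcna4 and 0.14 for Kcnb2. Without TSP1 replicate 4 they were 0.36, 0.17 and 0.32.

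The Kcnc genes give the fast repolarisation of parvalbumin interneurons and other fast-spiking cells. Kcnc1 (Kv3.1) had 193, 175, 162 and 162 CPM with TSP1 and 160, 192 and 184 CPM with PBS, and Kcnc2 (Kv3.2) had 89.1, 81.6, 84.2 and 77.7 CPM against 82.9, 86.2 and 94.0 CPM. The groups overlapped for both, with log2 fold changes of -0.05 (interval -0.22 to 0.13) and -0.08 (interval -0.22 to 0.07). Both values were -0.12 without PBS replicate 1. Parvalbumin interneuron markers summed to 29.2 to 41.2 CPM with TSP1 and 30.8 to 42.0 CPM with PBS.

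All 5 Kcnq genes were tested, with 3 fitted values above 0 and 2 below, and a median of 0.06. They carry the M-current, which opens near threshold and restrains repetitive firing. Kcnq5 had 111, 100, 109 and 89.9 CPM with TSP1 and 72.6, 97.5 and 89.4 CPM with PBS. TSP1 replicate 4 lay inside the PBS range and PBS replicate 1 was the lowest of the 7. This gave a log2 fold change of 0.25 (SE 0.10), with an unadjusted p of 0.0311 and an adjusted p of 0.473 in edgeR's test, and 0.13 without PBS replicate 1. Kcnq3, another M-current subunit, had 213, 190, 180 and 175 CPM with TSP1 and 149, 199 and 197 CPM with PBS, a log2 fold change of 0.06 (interval -0.16 to 0.28) that became -0.06 without PBS replicate 1.

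**Figure D3:**
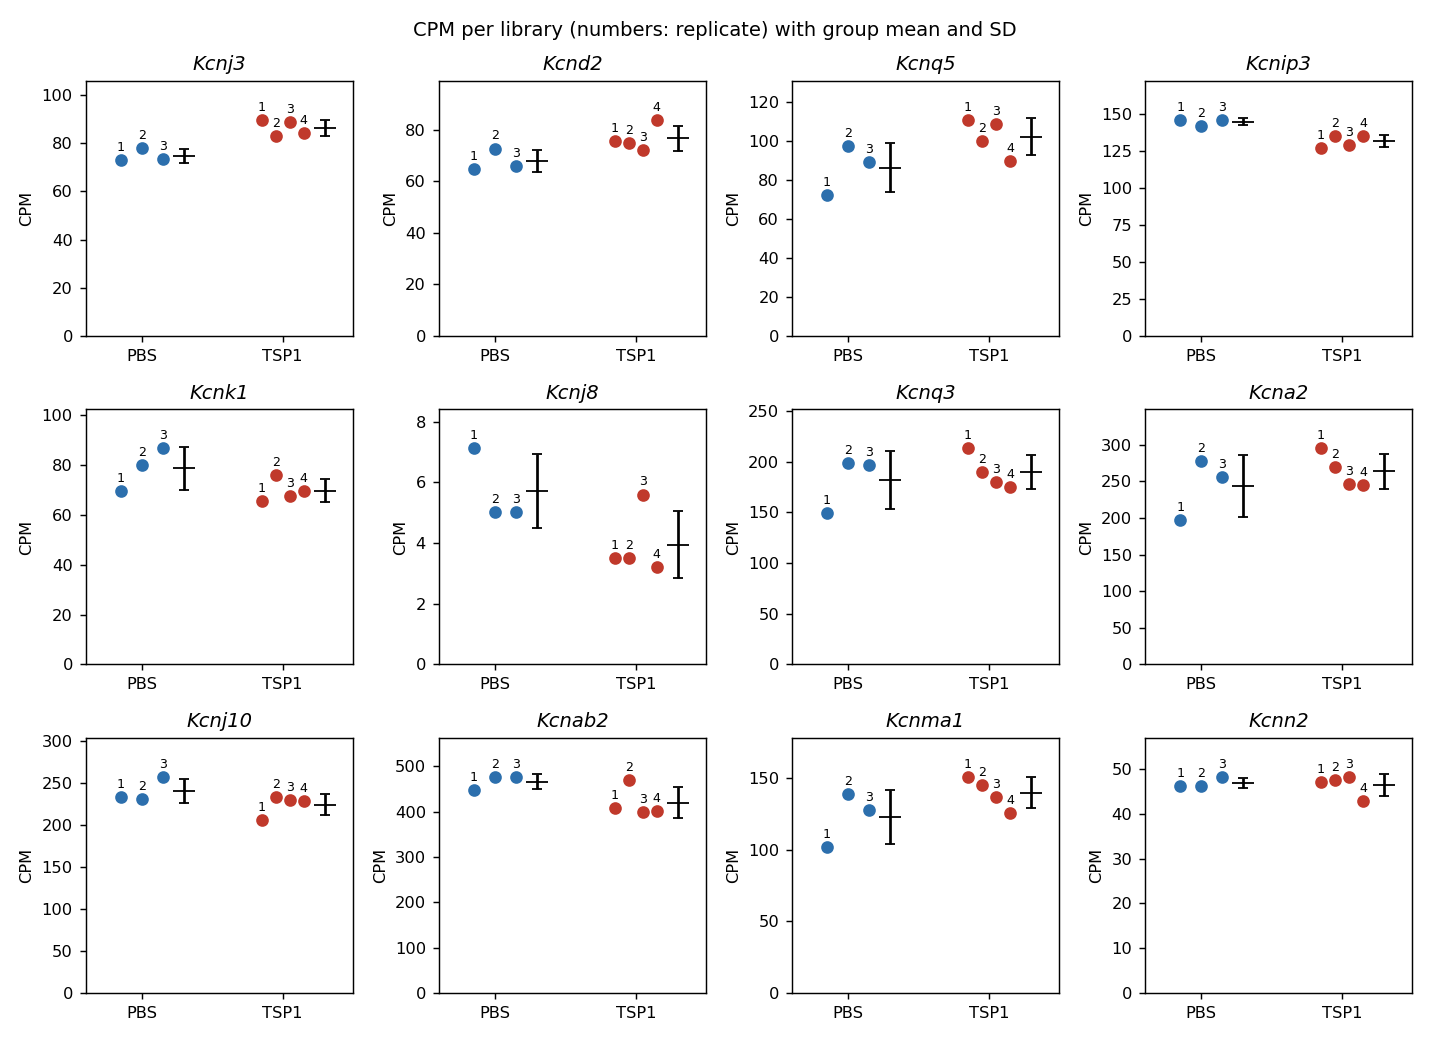
CPM of 12 members in each library (points, numbered by replicate; PBS blue, TSP1 red) with the group mean and SD to the right of the points; every axis starts at 0. Kcnj3 and Kcnip3 are the panels whose groups do not overlap, and PBS replicate 1 is the low point of the Kcnq3, Kcnq5, Kcna2 and Kcnma1 panels.

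In the Kcnh family (7 of 8 tested, median 0.06), the leading gene Kcnh3, a slowly gated forebrain channel of the ELK type, had 237, 249, 218 and 181 CPM with TSP1 and 207, 267 and 234 CPM with PBS. TSP1 replicate 4 was its lowest library, and the log2 fold change of -0.09 (SE 0.11) became -0.0017 without it. Kcnh5 had the largest fitted value above 0 of all members, 0.40, but its interval ran from -0.35 to 1.15, its values were 14.2 to 20.9 CPM with TSP1 and 7.50 to 18.7 CPM with PBS, and it became 0.10 without PBS replicate 1. Silent subunits (9 of 10 tested) had a median of -0.0024. Kcnf1 had 196, 218, 208 and 189 CPM with TSP1 and 190, 199 and 203 CPM with PBS, a log2 fold change of 0.04 (interval -0.10 to 0.18).

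Calcium-activated channels end a spike or follow it with a hyperpolarisation. Of this family, 4 of 5 members were tested, with a median of 0.01. Kcnma1, the large-conductance BK pore, had 151, 145, 137 and 126 CPM with TSP1 and 102, 139 and 128 CPM with PBS. PBS replicate 1 was again lowest, and the log2 fold change of 0.18 (SE 0.10) became 0.06 without it. Kcnn2, a small-conductance channel of spines and dendrites, had 47.1, 47.6, 48.2 and 42.8 CPM with TSP1 and 46.3, 46.2 and 48.3 CPM with PBS. It was among the steadiest members, with a within-group coefficient of variation of 4.39%, and its log2 fold change was -0.02 (interval -0.16 to 0.13). The sodium-activated Kcnt1 had 278, 230, 206 and 231 CPM with TSP1 and 234, 226 and 238 CPM with PBS (log2 fold change 0.02, interval -0.16 to 0.21).

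Leak channels (9 of 12 tested) had 3 fitted values above 0 and 6 below, a median of -0.06, and a summed level of 62.0 ± 3.06 RPKM (SD, n = 4) with TSP1 and 66.8 ± 5.33 RPKM (SD, n = 3) with PBS. Kcnk1 (TWIK-1), a leak subunit of astrocytes and neurons, had 65.6, 76, 67.5 and 69.7 CPM with TSP1 and 69.4, 80.0 and 86.6 CPM with PBS. The groups overlapped through PBS replicate 1. Its fitted difference was -0.17 on the log2 scale (SE 0.08), with an unadjusted p of 0.0491 and an adjusted p of 0.515 in edgeR's test. It ranged from -0.26 without PBS replicate 1 (unadjusted p 0.00613 in edgeR's test) to -0.10 without PBS replicate 3 (unadjusted p 0.298), and its unadjusted p was under 0.05 in 4 of the 17 alternatives. Kcnk3 (TASK-1) had 23.6 ± 2.76 CPM (SD, n = 4) and 26.2 ± 0.556 CPM (SD, n = 3), a log2 fold change of -0.15 (interval -0.35 to 0.05).

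Kcnk13 is THIK-1, the leak channel of microglia. It had 2.84, 5.22, 6.64 and 9.70 CPM with TSP1 and 8.60, 4.20 and 6.97 CPM with PBS, so the TSP1 libraries spanned the PBS range on both sides. Its log2 fold change was -0.11 with an interval of -1.07 to 0.85, too wide to read a direction. All 16 microglial markers had fitted values below 0, with a median of -0.26, and their sum did not overlap between groups, at 558 to 706 CPM with TSP1 and 726 to 846 CPM with PBS. The Kcnk13 value was highest in TSP1 replicate 4, where the microglial sum was lowest at 558 CPM and the oligodendrocyte sum highest. It was lowest in TSP1 replicate 1, with the next lowest microglial sum of 612 CPM, and next to highest in PBS replicate 1, with the highest sum of 846 CPM. The part of microglial content in the Kcnk13 value was not tested.

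Accessory subunits (12 of 16 tested) had 6 fitted values on each side of 0 and a median of -0.01, and their summed level was 177 ± 8.51 RPKM (SD, n = 4) with TSP1 and 188 ± 6.39 RPKM (SD, n = 3) with PBS. Kcnip3, also called DREAM or calsenilin, is a calcium sensor that binds Kcnd channels and is also known as a transcriptional repressor. It lies at chr2:127456498-127522094 (GRCm38). Its levels were 127, 135, 129 and 135 CPM with TSP1 and 146, 142 and 146 CPM with PBS. All 4 TSP1 values were below all 3 PBS values, and its within-group coefficient of variation, 2.59%, was the lowest of the 76 members. The log2 fold change was -0.14 (SE 0.06, interval -0.26 to -0.01), with an unadjusted p of 0.0316 and an adjusted p of 0.473 in edgeR's test. Its value stayed between -0.15 and -0.11 in the 17 alternatives. Its unadjusted p was under 0.05 in 9 of them and above it in 8, among them 0.0505 after the length and GC correction and, at the highest, 0.0901 without PBS replicate 3 in edgeR's test.

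The other Kcnd-binding subunits had overlapping groups. Kcnip1 had 14.4, 20.8, 16.8 and 19.1 CPM with TSP1 and 19.4, 17.2 and 20.4 CPM with PBS, and its log2 fold change of -0.09 had an interval of -0.34 to 0.16 that holds the Kcnip3 value. Kcnip2 had 81.0, 91.2, 85.0 and 82.2 CPM with TSP1 and 79.9, 96.3 and 82.8 CPM with PBS (log2 fold change -0.02, interval -0.18 to 0.14), and Kcnip4 had a log2 fold change of 0.08 (interval -0.10 to 0.25). Without PBS replicate 1 the values were -0.08 for Kcnip2 and 0.02 for Kcnip4. Kcnab2 had 408, 471, 400 and 402 CPM with TSP1 and 447, 477 and 476 CPM with PBS. TSP1 replicate 2 lay inside the PBS range and the other 3 below it. The log2 fold change was -0.15 (interval -0.31 to 0.0027), with an adjusted p of 0.530 in edgeR's test. Kcnab1 had 56.5, 49.3, 51.6 and 69.8 CPM with TSP1 against 54.9, 55.8 and 55.2 CPM with PBS, so TSP1 replicate 4 was high here as for Kcna1, and the log2 fold change of 0.04 became -0.07 without it.

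Genes outside the Kcn family that act with these channels were read from lists chosen with earlier results of these data known. Counts from these lists, here and in the next paragraph, are therefore descriptions, and no conclusion about a list is drawn from them. Of 22 tested channel partner proteins, 15 had fitted values above 0; at an unadjusted p under 0.05, 4 were higher (background 4.21%) and 1 lower (background 5.44%), and none passed the FDR. The groups did not overlap for 5 of the 22 (22.7%, background 10.1%), with Lrrc55, Dpp6, Adam23 and Amigo1, an auxiliary protein of Kcnb channels, higher and Vapb lower. Lrrc55, an auxiliary subunit of BK channels, had 16, 14.6, 14.4 and 17.5 CPM with TSP1 and 10.2, 14.0 and 11.1 CPM with PBS, which fitted as 0.42 (SE 0.12) on the log2 scale, with an adjusted p of 0.308 in edgeR's test. Dpp6, an auxiliary subunit of Kcnd channels, had 214 to 223 CPM with TSP1 and 192 to 205 CPM with PBS, and its fitted log2 fold change was 0.14 (SE 0.06; edgeR adjusted p 0.459). Adam23, a receptor of the LGI proteins that sit with Kcna channels, had 0.21 (adjusted p 0.403 in edgeR's test) and 0.14 without PBS replicate 1, and Ank3, the ankyrin that anchors Kcnq channels at the axon initial segment, had 0.20 (adjusted p 0.449 in edgeR's test). Vapb, a membrane protein of the endoplasmic reticulum, was the lower gene at -0.13 (adjusted p 0.494 in edgeR's test).

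The HCN pacemaker channels, which oppose several potassium currents near rest, and their subunit Pex5l made a list of 5, of which 4 had values above 0 and 2 were higher at an unadjusted p under 0.05 (background 4.21%). These were Hcn4 (log2 fold change 0.51, SE 0.22) and Pex5l (0.17, SE 0.07), each with an adjusted p of 0.479 in edgeR's test and overlapping groups. Without PBS replicate 1 the values were 0.72 for Hcn4 and 0.09 for Pex5l. Of 15 potassium pumps and cotransporters, 7 had values above 0, and 1 was lower at an unadjusted p under 0.05 (background 5.44%). This was Fxyd1, a regulator of the sodium pump, at -0.32 (SE 0.11, adjusted p 0.397 in edgeR's test), or -0.16 without PBS replicate 1.

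A pattern across libraries ran through the family, and some lists of other genes shared it. PBS replicate 1 was the lowest of the 7 libraries for 32 of the 76 members (42.1%), where 15% of all genes tested were lowest in that library. It was lowest for 9 of 15 voltage-gated, 5 of 7 Kcnh, 3 of 5 Kcnq and 5 of 12 inward rectifier genes, and for 2 of 12 accessory genes. The median member lay -0.10 (log2) from its own mean there, while the median of all genes was 0.01. The 12 members with at least 9000 bases of exon had a median of -0.23, and the other 64 had -0.08. Across the 76 members the correlation of this deviation with log2 exon length was -0.20, and across 17164 genes it was -0.14, as a description of that library. After a correction for exon length and GC content the members' median there was still -0.10. The low level was not particular to the members. In PBS replicate 1 the mean deviation was -0.15 for the channel partner list and -0.15 for the HCN list described above. It was -0.10 for the neuronal and -0.12 for the excitatory markers. Other lists went the other way, with 0.04 for the pumps and cotransporters, 0.11 for astrocyte and 0.26 for microglial markers.

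Leaving out PBS replicate 1 changed the balance of the family. The median log2 fold change became -0.05 over the same 76 members, and -0.03 over the 78 members tested in that fit. Of these 78, 4 (5.13%, background 8.55%) had an unadjusted p under 0.05, of which 1 was higher (1.28%, background 3.68%). Leaving out PBS replicate 2 instead gave 10 of 78 (12.8%, background 7.98%), of which 9 were higher (11.5%, background 3.63%). Without TSP1 replicate 4 the count was 8 of 76 (10.5%, background 9.74%), 7 of them higher (9.21%, background 4.33%). Without both TSP1 replicate 4 and PBS replicate 1 it was 5 of 76 (6.58%, background 8.21%), 3 of them higher (3.95%, background 3.81%). The sign of the fitted value changed for 13 of 76 members without PBS replicate 1 (17.1%, and 13.5% of all genes). It changed for 15 without PBS replicate 2 (19.7%, and 12.7%), 12 without TSP1 replicate 4 (15.8%, and 11.1%) and 7 without TSP1 replicate 3 (9.21%, and 8.33%). In the other fits the share was below that of all genes. It was 10.7% without TSP1 replicate 1 (all genes 11.8%), 3.95% without TSP1 replicate 2 (8.1%) and 10.5% without PBS replicate 3 (11.5%). Kcnj3 was counted in each of these fits, and no member passed the FDR in any.

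Marker lists of other cell types also leaned to 1 side, with no marker past the FDR. Besides the microglial and astrocyte lists, all 14 endothelial markers had fitted values below 0, with a median of -0.21 and sums of 383 to 499 CPM with TSP1 and 507 to 606 CPM with PBS. The neuronal list had 7 of 10 values above 0, a median of 0.05 and sums of 7448 to 7644 CPM with TSP1 and 7003 to 7496 CPM with PBS, with PBS replicate 1 lowest. Of the other neuronal lists, the excitatory list had 8 of 10 values below 0 and a median of -0.09, and the striatal list had all 13 tested above 0 and a median of 0.40, with TSP1 replicate 4 far above the other libraries. Markers at 0 in some library included Cd3e of the blood list, Ttr and Folr1 of the choroid plexus list, and Isl1 and Six3 of the striatal list. Their part in the values of the channel genes was not tested.

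**Figure D4:**
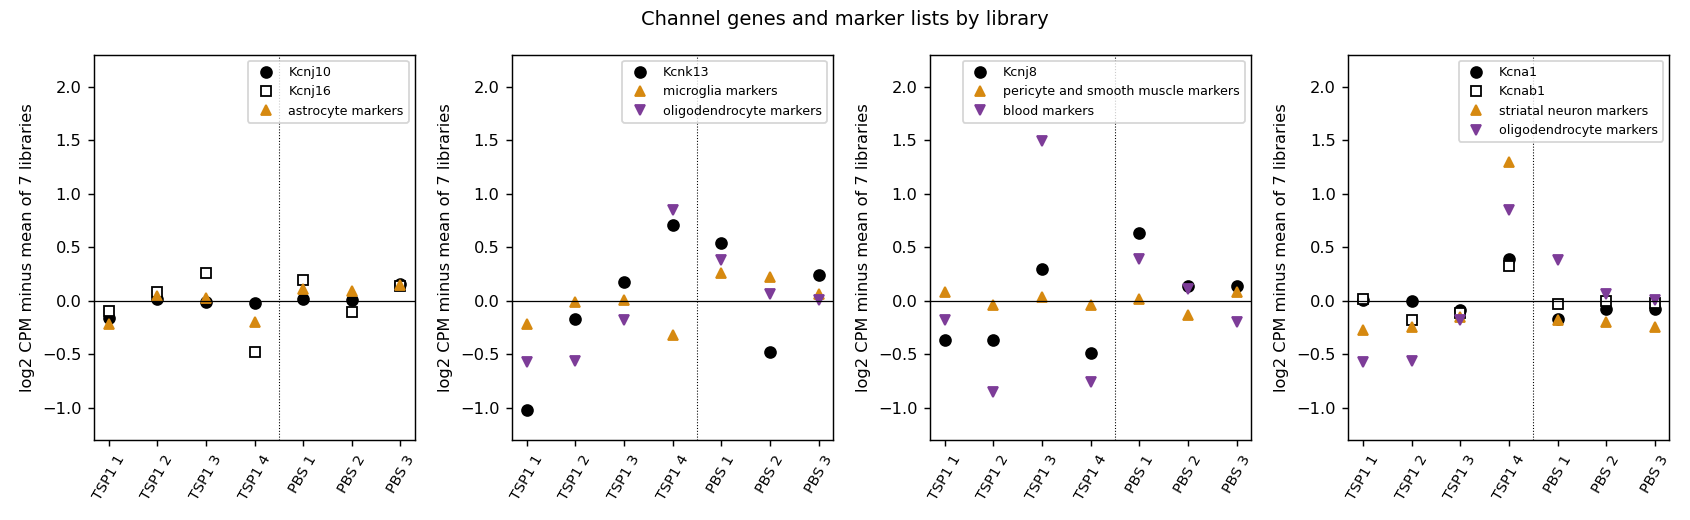
Deviation of 6 channel genes (black) and of marker lists (coloured triangles, mean over the list's tested genes) from the mean of the 7 libraries, in log2 CPM; the dotted line separates TSP1 from PBS. Kcna1 and Kcnab1 are highest in TSP1 replicate 4, where the striatal list reaches 1.30 and the oligodendrocyte list 0.85.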

How the data were processed

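The deposited table gives raw counts per gene for 7 libraries; per the submitters' processing notes the genome build was GRCm38 (mm10), and for the aligner, counter and strand setting the sources used here give nothing. Samples were grouped by title. Gene identifiers were matched to GENCODE M21 (25375 of 25467, of which 21179 with the same version), from which exon length and GC content were taken. Counts were filtered with filterByExpr, scaled by TMM and fitted without covariates in edgeR 4.0.16 (R 4.3.3) by the robust quasi-likelihood test, on all 17211 genes that passed, with Benjamini-Hochberg adjustment over them. CPM and RPKM were computed from the counts with TMM-scaled library sizes. P-values set each group difference against the spread between these mice, estimated with information shared across genes. The small number of mice limits the precision (median SE 0.11). Reads from overlapping genes cannot be told apart without strand, and 28 members share exon bases with another gene.

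The members and lists were chosen with earlier results of these data known. Genes named are the members at an unadjusted p under 0.05, the highest member of each family by RPKM, a set list of genes, and list genes at an unadjusted p under 0.05; other members (such as the GIRK partners, Kcnip1, Kcna3, Kcna4, Kcnb2 and Kcnh5) were named after their values were seen. Some genes that the rule names are not reported here. Alternatives were RLE size factors, DESeq2 1.42.0, edgeR's exact test, limma-voom (limma 3.58.1), no filter, a filter of 5 CPM in 3 libraries, a replicate block, length and GC offsets (splines with 4 degrees of freedom), both together, each library left out in turn and, added after seeing the data, TSP1 replicate 4 and PBS replicate 1 left out together. Within a group, every pair of libraries had a chi-square per degree of freedom of 4.26 to 14.7, so no pair looked like repeat deposits of 1 library; that each is a separate mouse rests on the series design.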

Additional observations from a re-analysis of the deposited data

Results flagged for a closer look

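For 2 of the 22 named genes, 1 TSP1 library lay far from the other 3 by Dixon's criterion (the gap to its neighbour against the group's range, at 95%); chance flags about 1 in 20 groups. Kcnj8 was at 5.6 CPM in TSP1 replicate 3, with the others at 3.21 to 3.5 CPM, a gap of 0.881 of the range, and PBS at 5.01 to 7.12 CPM. Kcnab2 was at 471 CPM in TSP1 replicate 2, with the others at 400 to 408 CPM, a gap of 0.877 of the range, and PBS at 447 to 477 CPM. In both genes the library that stood apart lay inside the PBS range.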

How the results depend on the processing

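No member passed the FDR in any of the 17 alternatives. Over all genes the count of 0 became 88 with DESeq2 (which gave no adjusted p for 10876 genes), 107 with edgeR's exact test, 19 with no low-count filter, 1 with TSP1 replicate 4 and PBS replicate 1 left out together, and 0 to 9 with each library left out in turn, the highest without PBS replicate 3. The members at an unadjusted p under 0.05 numbered 6 in the reported fit, 11 with no filter (12.4%, and 8.18% of all genes), and 4 to 10 with each library left out, the highest without PBS replicate 2. Over the members tested in each of these fits, the median log2 fold change ranged from -0.03 to 0.07. Of the 22 named genes, 12 kept their direction in all 17 alternatives, and Kcnj8 kept it in the 16 that tested it, since the filter of 5 CPM removed it.

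Signs turned in at least 1 alternative for the other 9 named genes. With the length and GC offsets Kcnt1 became -0.0008, Kcnq3 -0.02, Kcnip2 0.01 and Kcnab1 -0.02. With TSP1 replicate 4 and PBS replicate 1 left out, Kcnq3 became -0.02, Kcnn2 0.02 and Kcnab1 -0.08. With each library left out in turn, values ranged from -0.06 to 0.08 for Kcnt1, -0.42 to 0.14 for Kcnk13, -0.03 to 0.03 for Kcnn2, -0.07 to 0.11 for Kcnab1, -0.02 to 0.22 for Kcna2, -0.06 to 0.14 for Kcnq3, -0.18 to 0.01 for Kcnh3, -0.12 to 0.01 for Kcnc1 and -0.08 to 0.07 for Kcnip2. The cause was not tested.

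Same-numbered libraries correlated at -0.261, -0.033 and 0.01, and differently numbered ones at -0.121 to 0.218. So few pairs cannot show whether replicate numbers pair the samples. With the replicate block, 8 members had an unadjusted p under 0.05 (10.5%, and 7.94% of all genes), 6 of them higher (7.89%, and 3.15%) and 3 of them among the reported 6; 0 passed the FDR, the median was 0.04, and Kcnn2 became 0.02 and Kcnab1 -0.08. With the block and the length and GC offsets, Kcnh3 became 0.03, Kcnt1 -0.0026, Kcnn2 0.01, Kcnip2 0.02 and Kcnab1 -0.12.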

Other observations

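The non-coding transcripts named after Kcn genes were not members. The most abundant, Kcnq1ot1, the imprinted antisense RNA of the Kcnq1 locus, had 47.2, 39.8, 32.3 and 31.1 CPM with TSP1 and 31.8, 47.3 and 46.5 CPM with PBS. Its groups overlapped and PBS replicate 1 was again the low PBS library (log2 fold change -0.15, SE 0.19, adjusted p 0.854 in edgeR's test). Kcnb2, Kcna3 and Kcna4, fitted as higher with TSP1, and Kcnab2, fitted as lower, missed an unadjusted p of 0.05 in edgeR's test by little. The count of members at that level depends on such cases.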
